A study of Pararge aegeria with 4 samples.

Results

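The genes described here are the cyclins, the kinases that drive mitosis, and the proteins that license DNA replication and control the cell cycle, as found in the ovary of the Speckled Wood butterfly, Pararge aegeria. Contigs of the ovarian transcriptome were taken as members when a hit name or a Gene Ontology (GO) term held a word of the cell cycle rule, such as cyclin, cell division cycle, minichromosome maintenance, aurora or mitotic. The rule took 238 of 17505 contigs, which belong to 146 of 9743 Trinity genes, the assembler's groups of related contigs. A hit name brought in 85 of these genes, and a GO term alone brought in the other 61. 1 ovarian mRNA library was made for each of a pair of populations, so 2 of the 4 libraries of the series were used here. St Hubert is a laboratory-reared population from the south of Belgium, and Zonza is one from Corsica. The females had mated and were laying eggs, and each library held the ovaries of a pair of females. The females of both were kept under one regime, but the St Hubert stock had been reared in the laboratory for longer, and stock, population and library cannot be told apart.

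Progress through the cell cycle is driven by cyclin-dependent kinases, or CDKs, which are active only when bound to a cyclin, and each cyclin is made and destroyed at its own stage. D and E cyclins act before and at the start of DNA replication, while A and B cyclins with Cdk1 act at mitosis. The anaphase-promoting complex, or APC/C, is a ubiquitin ligase that marks the mitotic cyclins for destruction. In a butterfly ovariole the germline stem cells divide into cysts of an oocyte and its nurse cells. The nurse cells and follicle cells then replicate their DNA without dividing, and the oocyte, which arrests in meiosis, is loaded with cell cycle mRNAs that the early embryo uses for its rapid divisions.

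The 146 genes were sorted by their hit names into 8 cell cycle roles, which held 81 genes, into 6 other names that contain a word of the rule, and into 59 known by a GO term alone. The remaining 2 of the 61 found by a GO term, fizzy-related and the second entry of Mcm6, were placed in the roles that their hit names give. The other names included a ribosome-recycling factor at 38.3 FPKM (fragments scaled to contig length and to the mapped fragments of the library) in St Hubert and 34.6 in Zonza, and a major facilitator with a tetracycline domain name at 35.7 and 28.2. A calcyclin-binding protein stood at 122 and 132, and the kinase that binds cyclin G, a clathrin uncoating factor, at 16.4 and 18.0. None of these 4 is a cell cycle regulator by its name. The others were an S phase cyclin A-associated protein, at 2.36 and 2.37 over its matching contig, and LRRC40, at 8.97 and 9.39 over its matching contigs. LRRC40 had an earlier hit to a mitotic phosphatase regulator. In the whole rule, 2 genes were matched by the word recycling alone. The 8 roles are therefore described first and on their own.

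Cell cycle genes were abundant in the ovary. The median of the mean FPKM over the 2 libraries was 31.0 for the 81 genes of the 8 roles, against 18.3 for all 9743 genes, whose middle values ran from 7.52 to 38.1 between the quartiles. 32 of the 81 lay at or above the 75th percentile of all genes. By role the median was 62.9 FPKM for the aurora kinases and their partner, 57.9 for the minichromosome maintenance proteins, 46.6 for the cyclins and 31.0 for the origin recognition complex. The APC/C, at 16.6, lay near the median of all genes, and the CDKs and their partners stood at 17.3. These levels of members are summed over matching contigs, and those of all genes over all contigs. Over all contigs the median of the 81 genes was 33.2. Matching contigs alone understate some entries of the CDK role, such as Cdk1, at 65.2 FPKM in St Hubert and 79.1 in Zonza over all its contigs. The CDK median is therefore a low reading. FPKM is corrected for contig length, so levels may otherwise be set side by side.

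**Figure D1:**
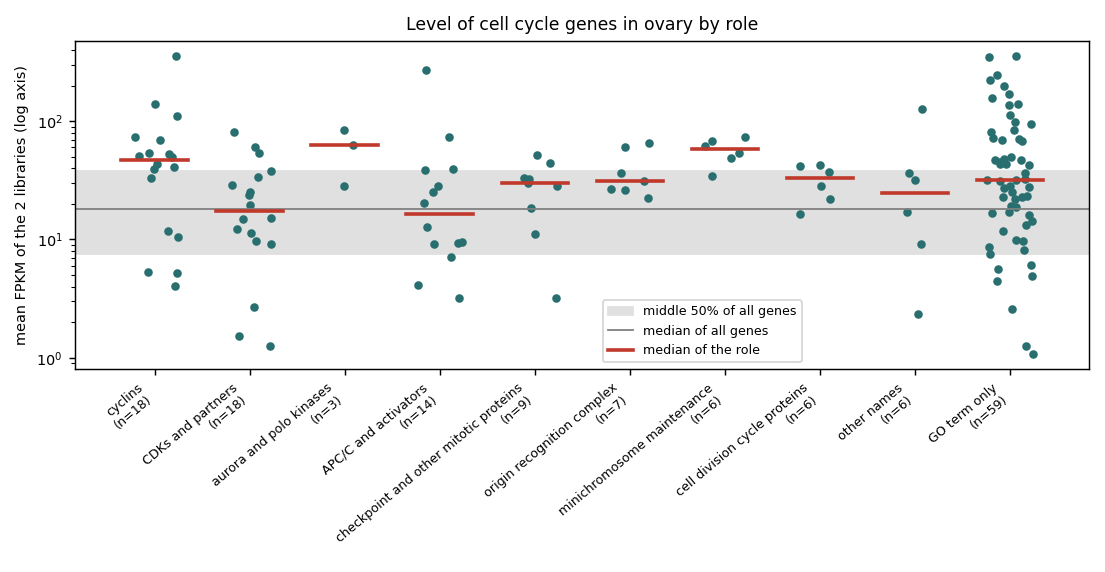
Level of each of the 146 genes, as the mean FPKM of the St Hubert and Zonza libraries on a log axis, grouped by role. The 146 genes are summed over their matching contigs, and the line and band of all genes over all contigs. Each point is a gene, the red bar is the median of its role, the grey line is the median of all genes (18.3 FPKM) and the grey band their middle 50%; the medians of the aurora genes (62.9), minichromosome maintenance proteins (57.9) and cyclins (46.6) lie above the band.

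The cyclins spanned from about 4 to about 360 FPKM. Cyclin B, the main partner of Cdk1 at entry into mitosis, stood at 138 FPKM in St Hubert and 143 in Zonza, and was the most abundant gene whose name in both annotations was a cyclin. A separate gene with a cyclin B-like hit stood at 90.7 and 129. Cyclin A, which acts in S phase and mitosis, stood at 58.9 FPKM in St Hubert and 87.2 in Zonza, and cyclin B3, a mitotic cyclin with a part in meiosis in Drosophila, at 46.4 and 33.3. The mitotic cyclins were thus all above the median gene in both libraries, but cyclin A was higher in Zonza and cyclin B3 higher in St Hubert. The G1 cyclins were far lower. Cyclin E, which with Cdk2 starts DNA replication, stood at 4.17 FPKM in St Hubert and 6.15 in Zonza. Of a pair of genes hit as cyclin D, the partner of Cdk4, the first stood at 4.87 and 16.1 and the second at 9.29 and 14.4. Cyclins B and A lay at the 95.1 and 89.5 percentiles of all genes by mean FPKM, and cyclin E at the 19.2 percentile.

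Names need care in this family. A second entry named cyclin B3 was the most abundant of the cyclins, at 360 FPKM in St Hubert and 357 in Zonza, but its BLASTx hit was dss1, a proteasome component, so its level cannot be read as that of a cyclin. The third entry, at 66.1 and 73.8, had a BLASTx hit to a protein with a cyclin domain. The cyclins of transcription kinases sat between these levels. Cyclin H, the partner of Cdk7, stood at 37.1 and 50.4, cyclin C at 39.4 and 42.4, and cyclin G, a regulator of growth and of meiotic recombination in Drosophila, at 56.6 and 45.0. Cyclin K, a partner of Cdk12, stood at 48.6 and 50.4, and cyclin L1, which acts in splicing, at 53.2 and 55.2. Cyclin Y stood at 31.4 and 35.01 and the cyclin-related FAM58A at 49.4 and 56.0. These regulators of transcription and signalling formed a middle group that differed by less than 1.5-fold between the libraries. A pair of cyclin J entries was low, at 5.51 and 5.09 for the first and 3.9 and 4.18 for the second. Cyclin J is known in Drosophila as a cyclin of the female germline.

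Among the CDKs, Cdk7, the CDK-activating kinase, was the most abundant, at 68.3 FPKM in St Hubert and 94.3 in Zonza. Cdk9, which releases paused RNA polymerase II, stood at 63.3 and 43.8, and Cdk2 at 28.2 and 47.4. Cdk4, the partner of cyclin D, stood at 16.5 and 22.2. An entry named as a CDK regulatory subunit, Cks, stood at 49.96 and 71.6, though its hit in the earlier transcriptome was STAF65gamma, a subunit of the STAGA complex. Cdk2, Cdk4 and Cdk7 were all higher in Zonza, and Cdk9 was higher in St Hubert. Cks85A, a small subunit that binds CDKs, stood at 24.9 and 33.1, and a CDK inhibitor 1 hit at 11.7 and 18.2. Cdk12, a kinase of transcription elongation, stood at 21.5 and 28.6, Cdk10 at 34.2 and 33.9, Cdk5, a kinase best known from neurons, at 24.6 and 23.2, and the Mediator kinase Cdk8 at 12.9 and 11.5. Cdk7 and Cdk9 were thus more abundant than Cdk2 and Cdk4, and Cdk8 less. Apart from Cdk1, the other entries of the role lay below 14 FPKM in both libraries over their matching contigs. Over all its contigs the Cdk2-interacting protein stood at 32.0 and 43.4. The lowest were a pair of Cdk14 entries, at 1.29 and 1.77 for the first and 1.34 and 1.15 for the second.

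Cdk1, the kinase of mitotic entry, needed all its contigs to be read. The single contig whose name meets the rule stood at 2.72 FPKM in St Hubert and 27.6 in Zonza, a ratio of 10.2. The same Trinity gene holds a pair of further contigs, which are also hit as cdc2, the older name of Cdk1, at 62.4 and 22.2 for the first and 0 and 29.2 for the third. Over all 3 contigs Cdk1 stood at 65.2 FPKM in St Hubert and 79.1 in Zonza, a log2 ratio of 0.28. The large difference was thus between contigs of Cdk1 and not in its summed level, which was close to that of cyclin A.

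Aurora A, a kinase of centrosomes and the spindle poles, stood at 79.6 FPKM in St Hubert and 89.2 in Zonza. Aurora B, the kinase of the chromosomal passenger complex, stood at 51.5 and 74.4, with a hydroxypyruvate isomerase as its hit in the earlier transcriptome. Aurora borealis, an activator of aurora A in Drosophila, stood at 22.5 and 33.9. All 3 were higher in Zonza, with log2 ratios of 0.16, 0.52 and 0.57. Polo, the kinase that acts with them at mitosis, did not meet the words of the rule. Its 2 contigs summed to 28.5 FPKM in St Hubert and 42.6 in Zonza, and share a Trinity gene with contigs of an unrelated secreted protein.

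Of the APC/C, fizzy, the insect Cdc20 that activates the complex at anaphase, stood at 60.5 FPKM in St Hubert and 85.7 in Zonza. Fizzy-related, the Cdh1 that activates it in G1 and in cells that replicate DNA without dividing, stood at 3.98 and 2.46. The name fizzy-related is that of its BLASTx hit, while its hit in the earlier transcriptome was fizzy. By the BLASTx names the mitotic activator was thus the more abundant by far in both libraries. The difference between the libraries ran in opposite directions for the pair. Among the subunits, APC15 was the highest at 296 and 247, followed by APC4 at 33.8 and 44.4 and Cdc27 at 36.5 and 41.4. Cdc23 stood at 24.4 and 32.0, the RING subunit APC11 at 23.5 and 26.7, APC2 (named morula) at 20.9 and 19.8, and APC5 at 12.7 and 12.8. A pair of APC1 entries stood at 8.84 and 9.69 and at 4.57 and 3.61. The subunits of the complex thus did not stand at one level. Cdc16 was held by 3 Trinity genes, at 6.95 and 11.2, at 2.58 and 16.5, and at 7.14 and 7.09.

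The spindle checkpoint delays anaphase until every chromosome is attached. MAD2, which binds Cdc20 and holds it inactive, stood at 44.6 FPKM in St Hubert and 58.3 in Zonza, BUB3 at 42.5 and 46.2, and KIF23, a kinesin of cytokinesis, at 30.9 and 35.4. BUB1 stood at 32.0 and 33.3, but its BLASTx hit was a Mediator subunit. MAD1, which recruits MAD2 to kinetochores, stood at 28.5 and 31.4, MAD2B at 26.2 in St Hubert with a log2 ratio of 0.19, and a NuMA-like protein of the spindle at 10.8 and 11.5 over its matching contigs, but at 20.1 and 13.9 over all its contigs, which turns its direction. The checkpoint genes lay close together in level, and MAD2, BUB3, KIF23 and BUB1 had log2 ratios of 0.06 to 0.38. Mitotic-spindle organizing protein 1, a component of the gamma-tubulin complex, stood at 23.0 and 13.7.

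**Figure D2:**
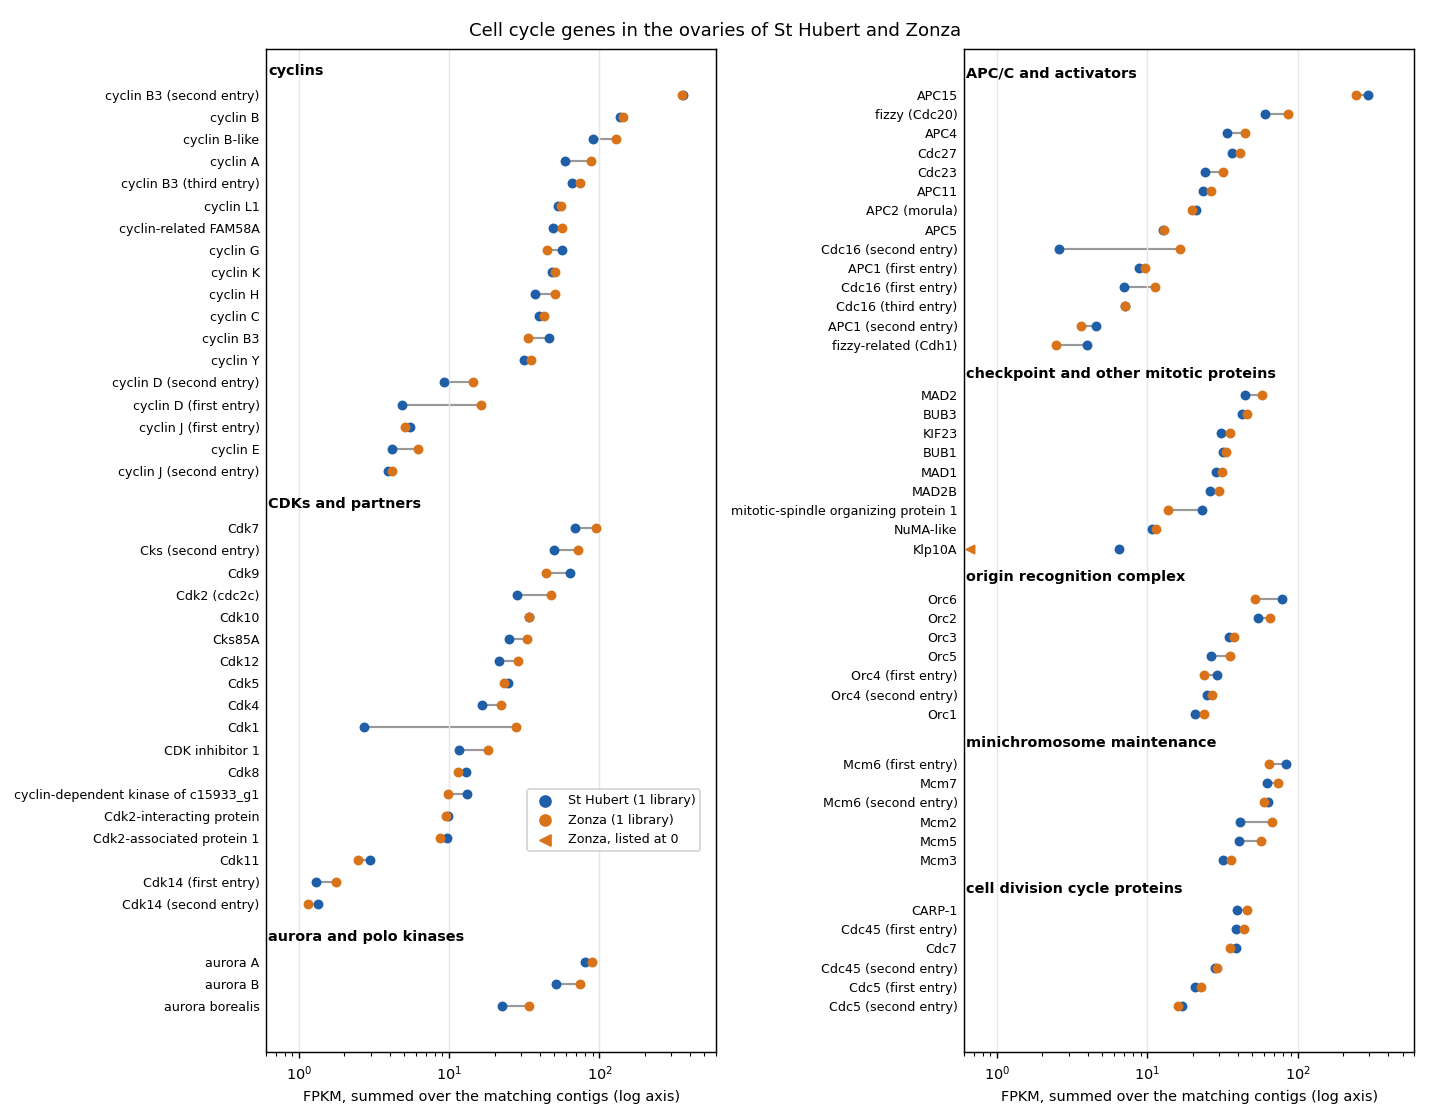
FPKM of the 81 genes of the 8 cell cycle roles in St Hubert (blue) and Zonza (orange), 1 library each, on a log axis, summed over the contigs that meet the rule. A line joins the libraries for each gene; most lines are short, and the longest are those of the matching contig of Cdk1 (2.72 and 27.6), the second entry of Cdc16 (2.58 and 16.5) and the first entry of cyclin D (4.87 and 16.1), while Klp10A (6.42 in St Hubert) is listed at 0 in Zonza.

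Replication origins are bound by the origin recognition complex and then loaded with the helicase formed by Mcm2 to Mcm7. Orc2 stood at 54.8 FPKM in St Hubert and 65.7 in Zonza, Orc3 at 34.7 and 37.6, Orc5 at 26.3 and 35.7, and Orc1 at 20.9 and 23.9. Orc4 was held by a pair of entries, at 29.3 and 23.8 and at 25.01 and 27.0. Orc6 stood at 78.6 and 52.1, the highest of the complex in St Hubert, below Orc2 in Zonza, and the largest difference towards St Hubert. The other subunits lay between 20.9 and 65.7 FPKM in both libraries.

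For the helicase, Mcm7 stood at 62.3 FPKM in St Hubert and 73.9 in Zonza, Mcm5 at 40.5 and 56.8, Mcm3 at 32.0 and 36.2, and Mcm2 at 41.6 and 67.1. Mcm6 was held by a pair of genes, at 83.7 and 64.3 for the first and 63.6 and 59.3 for the second. Mcm4, named dpa in the annotation and so outside the rule, stood at 58.9 and 70.0. Mcm2, Mcm3, Mcm4, Mcm5 and Mcm7 were higher in Zonza, and both entries of Mcm6 were higher in St Hubert. Cdc45, which joins the active helicase, stood at 39.0 and 44.2 for the first entry and 28.2 and 29.0 for the second. Cdc7, the kinase that triggers the helicase, stood at 38.8 and 35.4. CARP-1, a cell division cycle and apoptosis regulator, stood at 39.2 and 46.3. No contig was found under the name of Cdc6, the loader of the helicase.

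The libraries were then compared over all genes. The difference was taken as log2 of (Zonza FPKM + 1) over (St Hubert FPKM + 1), for genes with a mean FPKM of at least 1, and all 146 members passed that filter. With 1 library for each population there was no replicate error to test against, so a 2-fold difference was used as a threshold of size only. 8 of the 146 members passed it, 4 in each direction, which is 5.48%, against 10.3% of the 9399 genes tested. In each direction the share over all genes was 5.18% higher in Zonza and 5.08% higher in St Hubert. The share of members past 2-fold was thus below that of all genes. The members were also the more abundant, with a median of 31.5 FPKM, and the part of level in this share was not tested.

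Of the 8, 4 belonged to the named roles and 4 to the genes known by a GO term alone. The 4 in the roles were the first entry of cyclin D, with a log2 ratio of 1.55, the second entry of Cdc16 at 2.29, the matching contig of Cdk1 at 2.94, and Klp10A. Klp10A, a kinesin that takes apart microtubules, stood at 6.42 FPKM in St Hubert and was listed at 0 in Zonza, so no fold is given. The 4 by GO term were Cdc14A, a phosphatase of mitotic exit in yeast, at 1.35 and 3.85, fructose-bisphosphate aldolase, a glycolytic enzyme, at 241 and 74.7, endosulfine, an inhibitor of the phosphatase that opposes Cdk1, at 117 and 52.0, and RNA-binding protein 34 at 54.3 and listed at 0. The members nearest the threshold were Cdc14A, with a log2 ratio of 1.05, and endosulfine at -1.16 just inside it, and the zinc finger protein ZC3H12B at -0.92, the spindle kinesin Klp61F at 0.85 and condensin subunit 2 at 0.83 just outside.

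The 2-fold calls depended on which contigs of a gene were summed. With all contigs of each Trinity gene, 3 of the 146 members passed, or 2.05%, against the same 10.3% of all genes, which are also summed over all their contigs. These were an entry of cyclin D (log2 ratio 1.55), an entry of Cdc16 (2.29) and Cdc14A, each higher in Zonza. The other entries under these names stayed within 2-fold, with log2 ratios of 0.58 for cyclin D and 0.62 and -0.01 for Cdc16. The calls of Cdk1, Klp10A, aldolase, endosulfine and RNA-binding protein 34 were lost, since further contigs of the same gene were outside the rule. RNA-binding protein 34 moved from -5.79 to 0.092, because a second contig stood at 57.9 FPKM in Zonza and was listed at 0 in St Hubert. Klp10A stood at 12.9 FPKM in St Hubert and 9.91 in Zonza over both its contigs.

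The named cell cycle genes were more often higher in Zonza than in St Hubert. 55 of the 81 genes of the 8 roles were higher in Zonza, or 67.9% (exact binomial interval 56.6 to 77.8%, over genes, which are not replicates), against 49.3% of all genes tested. Some of the 81 are entries under the same name, such as those of Cdc16, cyclin D and Mcm6, and are not independent. The interval therefore only describes the share and is not a test against all genes. Without the 4 genes past 2-fold it was 52 of 77, or 67.5%. With all contigs of each gene it was again 55 of 81, with the direction turned in 2 genes, the Cdk2-interacting protein and the NuMA-like protein. The median log2 ratio of the 81 was 0.13, against -0.01 for all genes. The genes known by a GO term alone went the other way, with 24 of 59 higher in Zonza and a median of -0.07, so that over all 146 members the share was 56.8% and the median 0.06. The differences are small, and the libraries cannot be separated from the populations.

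By role, 14 of 18 cyclins, 9 of 18 CDKs and partners, all 3 aurora genes, 9 of 14 APC/C genes, 7 of 9 checkpoint and mitotic genes, 5 of 7 origin recognition genes, 4 of 6 minichromosome maintenance genes and 4 of 6 cell division cycle proteins were higher in Zonza. With all contigs these were 10 of 18 CDKs and partners and 6 of 9 checkpoint and mitotic genes. The median log2 ratio of each role was above 0, from 0.08 for the cell division cycle proteins to 0.52 for the aurora genes. The aurora median rests on 3 genes.

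**Figure D3:**
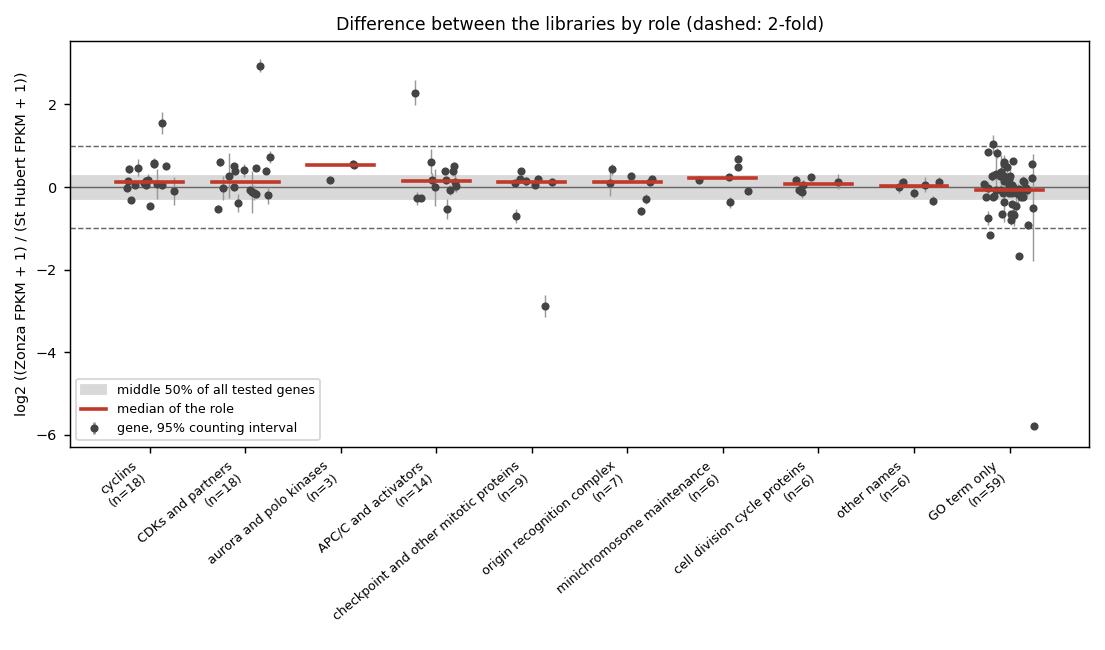
Log2 ratio of Zonza over St Hubert FPKM, each with 1 added, for the 146 genes by role. Points are genes with bars for the 95% counting interval, red bars are medians, the grey band holds the middle 50% of all tested genes and dashed lines mark 2-fold; the role medians run from 0.08 to 0.52 among the named roles and the GO term group lies at -0.07.

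The size of single differences was set beside counting error, the error that the number of sequenced fragments alone gives. The fragment numbers were recovered from the steps in the lowest FPKM, and came to about 21600000 mapped fragments for St Hubert and 20390000 for Zonza. These intervals cover counting error only and compare these libraries, not the populations. The first entry of cyclin D rested on about 117 fragments in St Hubert and 358 in Zonza, with a log2 ratio of 1.55 (95% interval 1.28 to 1.81), and the second entry of Cdc16 on 56 and 337, with 2.29 (1.98 to 2.59). Both intervals lie above the 2-fold threshold of 1.

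The moderate differences also exceeded it in most of the abundant genes. Cyclin A had a log2 ratio of 0.56 (0.50 to 0.62), Cdk2 of 0.73 (0.59 to 0.87) and Mcm2 of 0.68 (0.59 to 0.77). In the other direction cyclin B3 had -0.47 (-0.54 to -0.39), Cdk9 -0.52 (-0.61 to -0.43) and Orc6 -0.58 (-0.68 to -0.48). Cyclin B, at 0.06 (0.01 to 0.10), had a ratio of 1.04. Such intervals are narrow for every abundant gene and set apart little. They excluded 0 in 58 of the 81 genes, or 71.6%, 43 of them higher in Zonza and 15 in St Hubert, but also in 69.3% of all genes tested. Of the 9399 genes tested these were 3203 higher in Zonza and 3306 in St Hubert.

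Within genes, the contigs differed far more than the sums did. Fizzy was held by a contig at 60.5 FPKM in St Hubert and listed at 0 in Zonza, and by a second contig listed at 0 in St Hubert and at 85.7 in Zonza, of nearly equal length (2217 and 2212 bases). Orc2 had a contig at 54.8 and 6.14 and a second listed at 0 in St Hubert and at 59.6 in Zonza. Mcm7 had a contig at 62.3 and 39.4 and a second listed at 0 and at 34.5. The sums of these 3 genes differed by at most 0.50 on the log2 scale, while 1 contig of each was listed at 0 in St Hubert. Aurora A had 3 contigs, none listed at 0 in either library.

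Further genes held more contigs. Mcm2 had a contig at 30.1 FPKM in St Hubert and 38.9 in Zonza, a second at 11.5 and listed at 0, and a pair listed at 0 in St Hubert and at 14.5 and 13.7 in Zonza. The second entry of Mcm6 had a contig listed at 0 and at 40.5, a second at 29.7 and listed at 0, and the third at 33.9 and 18.8. MAD2B had 5 contigs, of which 1 was shared, at 21.1 and 7.79, and each of the others was listed at 0 in one library. Cyclin D showed the same in both entries. The second entry had a contig of 4165 bases at 9.29 and listed at 0, and a pair of 4143 and 4154 bases listed at 0 in St Hubert and at 5.93 and 8.47 in Zonza. The first entry had contigs listed at 0 and at 10.4, at 3.31 and listed at 0, and at 1.56 and 5.7. Only the last of these was found in both libraries among the 6 cyclin D contigs. Cyclin A was held by a contig of 3901 bases at 46.1 and 48.2 and a shorter one of 2333 bases at 12.9 and 39.0, so the difference in its sum lay in the shorter contig.

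**Figure D4:**
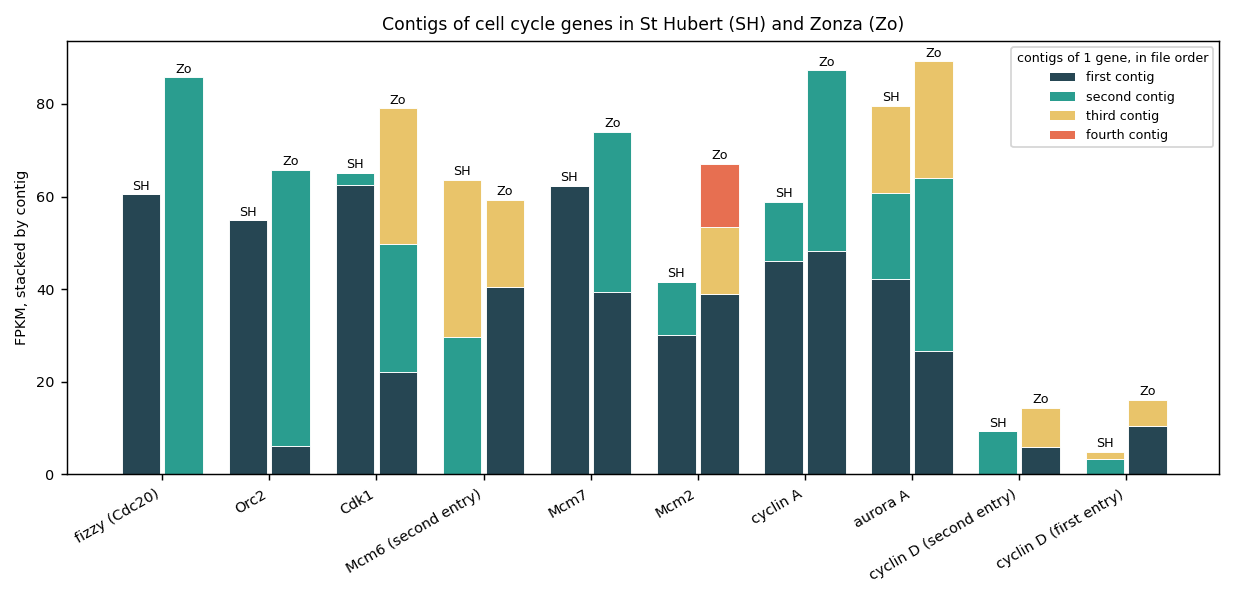
FPKM of the contigs of 10 cell cycle genes, stacked in file order, in St Hubert (SH) and Zonza (Zo), 1 library each. For fizzy the St Hubert bar (60.5) and the Zonza bar (85.7) are made of different contigs, while the 3 contigs of aurora A are present in both libraries.

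Such exchange, with a contig of at least 1 FPKM in one library listed at 0 in the other and the reverse for another contig of the same gene, was found in 12 of the 72 members with at least 2 contigs, or 16.7%, against 14.2% of the 4163 such genes in all. The share of members was thus near that of all genes. A contig listed at 0 in either library, and of at least 1 FPKM in the other, was held by 32 of the 72, or 44.4%, against 48% of all such genes. The 12 were both cyclin D entries, fizzy, MAD2B, a NuMA-like protein, Mcm2, the second entry of Mcm6, calmodulin, endosulfine, a subunit of splicing factor 3A, RNA-binding protein 34 and the translation factor eIF4E. Over the 72 genes the median absolute log2 ratio was 0.25 for the summed gene and 1.05 for the 183 single contigs, against 0.27 and 1.13 for all genes of 2 or more contigs. Of the single contigs that meet the rule, 84 of 232 passed 2-fold, or 36.2%, against 39.8% of all single contigs. 50 of them were higher in Zonza and 34 in St Hubert, against 21.7% and 18.1% of all single contigs in the same order. Whether the contigs are alleles of the populations or isoforms cannot be told apart here, as contig sequences were not used. The error of sharing fragments among similar contigs was not measured either.

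The genes known by a GO term alone were a mixed set, most of them with the term for mitotic nuclear division. Calmodulin, the calcium sensor, stood at 402 FPKM in St Hubert and 303 in Zonza, effete, a ubiquitin-conjugating enzyme, at 382 and 322, and the epsilon subunit of the TCP-1 chaperonin, which folds tubulin and actin, at 266 and 226. The abundant genes of this set were thus housekeeping proteins that are active outside mitosis as well. All 6 TCP-1 subunits of the set were lower in Zonza, from -0.06 on the log2 scale for TCP-1 delta to -0.65 for TCP-1 alpha, each short of 2-fold. The condensin subunits, which compact mitotic chromosomes, had log2 ratios of 0.63 for subunit 1, 0.83 for subunit 2 and 0.18 for subunit 3, and Klp61F, the kinesin that pushes spindle poles apart, stood at 22.6 and 41.7. SMC1, a cohesin subunit, stood at 41.0 and 45.6, and topoisomerase 2, which untangles sister chromatids, at 6.8 and 8.41. These genes were picked after their values were seen, and other genes of chromosome structure outside the rule went both ways. SMC2 and SMC3 (structural maintenance of chromosomes proteins) were slightly higher in Zonza, at 0.09 and 0.12 on the log2 scale. SMC4, at -0.02, SMC5, at -0.30, SMC6, at -0.09, the cohesin subunit SA-1, at -0.09, and a condensin-2 subunit H2 hit, at -0.10, were lower in Zonza. Among the signalling genes, grapes, the Chk1 of insects, stood at 6.43 and 4.73, and the Hippo kinase warts at 23.6 and 22.3. The ubiquitin-conjugating enzymes of the APC/C stood at 113 and 114 for E2 C and 67.0 and 73.1 for E2 S. Rfc2, a clamp loader subunit, was lower in Zonza, at 63.3 and 35.6, and zw10, a kinetochore protein, was held by entries at 35.02 and 52.3 and at 47.2 and 42.7. The genes of this set thus shared no one direction.

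Further cell cycle genes outside the words of the rule were taken from a list of textbook names, which found 59 genes. 3 of the 59 passed 2-fold, or 5.08%, with 2 higher in Zonza and 1 in St Hubert, against 10.3% of all genes past 2-fold and 5.18% and 5.08% in those directions. 41 of 59 were higher in Zonza, against 49.3% of all genes, with a median log2 ratio of 0.12. The kinase nek2 stood at 13.2 FPKM in St Hubert and 48.6 in Zonza, a replication factor C subunit (hit as subunit 3 and subunit 5) at 32.4 and 73.5, and DNA polymerase epsilon subunit 3 at 54.5 and 24.6. The share higher in Zonza in this list, 69.5%, was close to that of the 8 roles. The list was found by words in hit names, and some entries carry conflicting names. By BLASTx a DNA primase entry was hit as a Golgi protein, a DNA polymerase epsilon subunit 4 entry as alpha amylase, and centromere protein F as a viral inclusion protein.

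In this list the sliding clamp PCNA stood at 198 and 245, and geminin, which restrains the licensing factor Cdt1, at 203 and 228. Cdt1 itself stood at 42.7 and 66.2. PCNA and geminin were thus more abundant than cyclin B. A gene hit as M-phase inducer phosphatase, the Cdc25 that activates Cdk1, was low at 2.6 and 3.16, and its opponent wee1 stood at 7.64 and 6.86. A pair of E2F entries, the transcription factor of S phase genes, were lower in Zonza, at 18.5 and 9.18 and at 29.3 and 15.6, each short of 2-fold on the log2(FPKM + 1) scale.

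The ovary libraries also differed in the marker RNAs of some other cell types. In bulk tissue fewer cells of a type and less RNA per cell cannot be told apart. The 20 follicle cell markers, mostly chorion genes of late eggs, summed to 3921 FPKM in St Hubert and 11974 in Zonza, with 12 past 2-fold, all higher in Zonza, against 5.18% of all genes. The 5 fat body markers summed to 2977 and 7205, with 3 past 2-fold, all higher in Zonza, against the same 5.18%, and storage protein 1 was listed at 0 in St Hubert. Vasa, a defining gene of the germline, stood at 82.2 and 67.9, and a nanos-like gene, which carries most of the difference in the germline sum, at 910 and 686. The 13 germline markers summed to 1468 and 1242, with 5 of the 12 tested higher in Zonza, and the 9 muscle markers to 490 and 438, with none past 2-fold in either list, and a fragment of myosin heavy chain listed at 0 in Zonza. The 5 haemocyte markers summed to 8.11 and 8.6 FPKM, each at a mean of at most 3.28 FPKM, with 3 of the 5 past 2-fold towards St Hubert and 1 towards Zonza, against 5.08% and 5.18% of all genes, and hemolin listed at 0 in St Hubert. FPKM are shares of a library, and the part of these differences in the small shift of the cell cycle genes was not tested.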

How the data were processed

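mRNA reads of both populations were pooled by the authors and assembled with Trinity, and contigs were kept with a BLAST hit. The authors deposited FPKM per contig and population from RSEM, with contig lengths, hit names and GO terms; the submitters' processing notes name Bowtie. The columns headed Belgium and Corsica were taken as St Hubert and Zonza. FPKM were summed per Trinity gene over the contigs that meet the rule. Contigs with a Mus musculus hit (131) were left out. A pseudocount of 1 and a mean FPKM of at least 1 were used. No test was made, as there is 1 library for each population. Mapped fragments were recovered from FPKM steps in 290 and 293 single-contig genes of low level. In these genes 96.9% and 95.6% of values fell within 0.15 of a whole fragment. The fit was made on the same values, so these shares are not an independent check. Intervals are Poisson, at 95%, for counting error only. The scripts were tested on simulated data.

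Genes named are, in each role, the 3 highest by mean FPKM, the largest ratio each way, all past 2-fold, and textbook members; others (cyclin B-like, cyclins C and G, J, K, L1 and Y, further CDKs, APC/C and checkpoint genes, aurora borealis, GO-term genes, other list genes) were chosen after their values were seen. Members, lists and the exchange definition were chosen with earlier results of these data known. Small RNA counts were not used. Python 3.11.15, pandas 2.3.3 and scipy 1.17.1 were used.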

Additional observations from a re-analysis of the deposited data

How the results depend on the processing

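No paired analysis was possible because there is 1 library for each population. Of the 146 members, 8 passed 2-fold; 3 did with all contigs of each gene summed (0 higher in St Hubert), and 84 contigs did when contigs were not summed (50 higher in Zonza and 34 in St Hubert). With members by hit name only, 4 passed, 1 of them higher in St Hubert, and the share higher in Zonza was 69.4% against 56.8%. A 1.5-fold threshold gave 24 (12 in each direction) and a 3-fold threshold 5 (2 higher in Zonza). The shares of all genes at these other thresholds were not taken, so these counts have no background to be read against. With all contigs, RNA-binding protein 34 moved from -5.79 to 0.092, since a contig outside the rule was added; 4 further calls were lost in this way, those of aldolase (-0.74), Klp10A (-0.35), endosulfine (-0.41) and Cdk1 (0.28). In all, 7 of the 146 members turned direction with all contigs, 2 of them in the 8 roles. Cdc14A fell to 0.48 with a pseudocount of 5. Pseudocounts of 0.1 and 5, no filter, a mean of at least 5, centring on the median and TPM kept the counts within 1.5 times (6 to 8 past 2-fold). The share of the 8 roles higher in Zonza, added after seeing the data, ran from 66.7% with TPM to 71.6% at a mean FPKM of at least 5. With 1 library each, none of this measures biological spread, and 2-decimal FPKM limits ratios of the lowest genes.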
